A study of Mus musculus with 57 samples.

Results

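The heat shock chaperone genes described here are 10 genes, *Hspa1a*, *Hspa1b*, *Hspa8*, *Hsph1*, *Dnajb1*, *Bag3*, *Hsp90aa1*, *Hspb1*, *Cryab* and *Hspd1*. They were chosen by gene symbol, with earlier results of these data known. Counts of these genes beside the share of all genes are therefore a description and not an independent test. All 10 were found among the 25416 genes of the acute table and the 54658 genes of the chronic table. Heat shock proteins bind unfolded proteins and help them fold, keep them soluble or pass them on for degradation. Their genes are driven by heat shock factor 1 (HSF1), which binds repeated nGAAn units in DNA when unfolded proteins accumulate. In the heart, chaperones hold the sarcomere proteins and the mitochondrial matrix proteins in shape, and mutations in *CRYAB* and *BAG3* cause inherited cardiomyopathy.

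Heart RNA came from male C57BL/6 mice given doxorubicin (Doxo), an anthracycline used against cancer that damages the heart, with or without nicotinamide mononucleotide (NMN), a precursor of NAD+. In the acute study, mice bought at 9 weeks of age received, after acclimation, saline (Ctrl, n = 14), 1 i.p. injection of 20 mg/kg Doxo (n = 13), or the same injection with 180 mg/kg/day NMN i.p. from 5 days before Doxo (Doxo-NMN, n = 13), and hearts were taken at day 5. In the chronic study, mice of 14 to 16 weeks received PBS (Ctrl, n = 5), 5 i.p. injections of 4 mg/kg Doxo for a total of 20 mg/kg (n = 6), or the same injections with 500 mg/kg/day NMN in the drinking water from 5 days before Doxo (Doxo-NMN, n = 6), and hearts were taken at day 60. No group received NMN without Doxo, the studies were sequenced by different providers, and study and provider therefore cannot be told apart. Each library was 1 heart. In the paper's acute study all Ctrl mice survived to day 5, and fewer Doxo than Doxo-NMN mice did. The acute hearts therefore come from survivors, in unequal shares of the groups, and the part of this in the values was not tested.

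Total counts ranged from 32409622 to 52102850 in acute and from 17769886 to 23862287 in chronic hearts, and 3 counts, the floor of detection used here, correspond to 0.0576 to 0.0926 CPM and 0.126 to 0.169 CPM, for counting error only. CPM is the count scaled to a fixed library total, with TMM factors for the composition of each library. All 10 genes were above this floor in all 57 hearts and passed the filter on low counts in both studies. The hearts carried their defining markers: the summed CPM of 8 cardiomyocyte genes averaged 71799 in acute Ctrl, 55938 in Doxo and 74414 in Doxo-NMN hearts. Of the other cell types checked, 5 neutrophil genes summed to 1.71, 38.5 and 12.6 CPM, 5 red cell genes to 1543, 28.1 and 1.34 CPM, and 6 atrial genes to 2291, 666 and 821 CPM in the same order of groups, and no listed marker was at 0 in every heart. In whole heart RNA, fewer cells of a type and less RNA per cell cannot be told apart, and the part of these shifts in the results below was not tested except where values within atrial tissue classes are given. One acute Doxo heart, replicate 6, stood apart: it had the lowest neutrophil sum (1.84 CPM) and the highest red cell sum (338 CPM) of its group, and the values without it are given beside the calls and counts that turn on it.

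The promoters of *Hspa1a*, *Hspa1b* and *Hspb1* are shown because these 3 genes were among those lower in Doxo-NMN than in Doxo hearts, and because *Hspa1a* and *Hspa1b* are near-identical copies whose reads a counter can split. RefSeq windows of GRCm38.p6 from 250 bases before to 50 bases after the start site were searched for the paired HSF1 unit GAANNTTC or TTCNNGAA and for the triple unit GAANNTTCNNGAA or TTCNNGAANNTTC, which covers both strands and contains the paired unit. Windows were at hand for 7 of the 10 genes, *Hspa1a*, *Hspa1b*, *Hsph1*, *Dnajb1*, *Hspb1*, *Bag3* and *Hspd1*. Of all 32851 windows, 4946 (15.1%) held the paired and 198 (0.603%) the triple unit. The 150 bases before the start site follow, with paired units in capitals; they lie upstream of the annotated exons at chr17:34972157-34972306 (minus strand), chr17:34959239-34959388 (minus strand) and chr5:135887769-135887918 (plus strand).
Hspa1a: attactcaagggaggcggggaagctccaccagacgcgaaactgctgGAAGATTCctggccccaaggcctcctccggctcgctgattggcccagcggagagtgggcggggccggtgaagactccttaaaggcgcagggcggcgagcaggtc
Hspa1b: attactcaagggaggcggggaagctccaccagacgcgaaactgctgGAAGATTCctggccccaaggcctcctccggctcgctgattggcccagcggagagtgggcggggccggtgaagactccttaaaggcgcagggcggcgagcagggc
Hspb1: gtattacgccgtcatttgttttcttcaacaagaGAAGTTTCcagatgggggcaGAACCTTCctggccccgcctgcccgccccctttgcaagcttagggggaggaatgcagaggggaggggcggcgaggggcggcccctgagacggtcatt

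The *Hspa1a* and *Hspa1b* stretches were identical at 149 of 150 bases, and the whole windows at 296 of 300. Both had their paired unit at −104 to −97, counted from the start site, whereas *Hspb1* had paired units at −117 to −110 and −97 to −90. *Bag3* had 1 paired unit, at +43 to +50, and neither window of *Dnajb1* held these letters. The triple unit was found in *Hsph1* and in *Hspd1*, and both are shown as 30 bases, since these bases are in annotated exons. The *Hspd1* site, at chr1:55088053-55088082, holds 2 overlapping triple units and is exonic in *Hspd1* and upstream of *Hspe1*, the HSP60 and HSP10 genes that are transcribed in opposite directions from a shared promoter region. The *Hsph1* site is at chr5:149636279-149636308 (minus strand), and the *Hspd1* site is written on the minus strand too.
Hsph1: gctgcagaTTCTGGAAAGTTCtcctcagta
Hspd1: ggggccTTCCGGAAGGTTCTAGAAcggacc
A match of letters is a description of the window and does not show that HSF1 was bound in these hearts.

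In the GENCODE annotation of GRCm38 the 10 genes lie on 7 chromosomes. The inducible HSP70 copies are neighbours, *Hspa1b* at chr17:34956436-34959238 and *Hspa1a* at chr17:34969190-34972156, both on the minus strand, and 19.0% of the exon bases of *Hspa1a* are shared with the annotated gene *Gm20481*. *Hsph1* (chr5:149614287-149636376, minus strand) and *Hspb1* (chr5:135887919-135889563, plus strand) share a chromosome, as do *Cryab* (chr9:50751325-50756636, plus strand) and *Hspa8* (chr9:40800984-40810087, plus strand), whose exons hold small nucleolar RNA genes over 6.09% of their bases. The others are *Dnajb1* (chr8:83608193-83612653, plus strand), *Hsp90aa1* (chr12:110690605-110702728, minus strand), *Bag3* (chr7:128523616-128546981, plus strand) and *Hspd1* (chr1:55077835-55088243, minus strand).

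Per kilobase of exon, the genes covered a wide range of levels in untreated hearts. In acute Ctrl hearts the order of the median CPM per kilobase was *Cryab* (745), *Hspa8* (312), *Hspd1* (171), *Hspb1* (142), *Bag3* (100), *Hsp90aa1* (47.0), *Hsph1* (9.31), *Dnajb1* (5.10), *Hspa1b* (2.16) and *Hspa1a* (1.54). *Cryab*, the αB-crystallin gene of muscle and lens, ranged from 530 to 881 CPM per kilobase and did not overlap with *Hspa8*, the constitutive HSP70, at 222 to 348. *Hspb1* (97.9 to 210) overlapped with *Hspd1* (147 to 216) and with *Bag3* (72.5 to 126), and *Hspd1* did not reach *Hspa8*. *Hsph1* overlapped with *Dnajb1*, *Dnajb1* (from 3.83) with *Hspa1b* (up to 5.17), and *Hspa1b* with *Hspa1a*. *Hsp90aa1* (35.1 to 56.8) overlapped with neither neighbour. In chronic Ctrl hearts *Cryab* was again at the head (median 913) and *Hspa1b* (3.73) and *Hspa1a* (3.45) at the foot, and *Hspb1* (216) and *Hspa8* (213) stood next to each other behind it, in an order that turned when means or the longest transcript were used.

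The chaperone genes called after acute Doxo went in both directions. The inducible HSP70 gene *Hspa1b* and the HSP110 gene *Hsph1* were lower, whereas the small heat shock protein gene *Hspb1* and the co-chaperone gene *Bag3* were higher than in Ctrl hearts. These 4 of 10 genes were called, 2 higher and 2 lower, at an adjusted p under 0.05 in edgeR's quasi-likelihood test and a fold change of at least 1.5, against a background of 30.1% of the 14240 genes tested (14.7% higher and 15.4% lower). At the adjusted p alone 7 of 10 passed, 3 higher and 4 lower, against 68.1% of all genes, so that neither share stood far from that of all genes. The median log2 fold change over the 10 genes was −0.12, and over all genes tested −0.0016.

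*Hsph1* encodes HSP110, which exchanges the nucleotide of HSP70 and helps it dissolve aggregates. Its lowest, median and highest levels were 55.0, 67.7 and 103 CPM in Ctrl, 16.3, 22.99 and 85.5 CPM in Doxo, and 20.6, 34.5 and 46.1 CPM in Doxo-NMN hearts. Doxo hearts were low with 1 exception: 12 of 13 lay below every Ctrl heart, and the heart at 85.5 CPM was replicate 6. The log2 fold change of Doxo vs. Ctrl was −1.42 ± 0.18 (SE; adjusted p = 2.81e-08), and −1.70 ± 0.13 without that heart.

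*Hspa1a* and *Hspa1b* encode near-identical forms of the inducible HSP70, and both were among the least abundant genes of the list. The lowest, median and highest levels of *Hspa1b* were 2.73, 6.06 and 14.5 CPM in Ctrl, 2.27, 3.26 and 7.03 CPM in Doxo, and 1.74, 2.27 and 3.31 CPM in Doxo-NMN hearts. Those of *Hspa1a* were 1.33, 4.55 and 12.03 CPM, 1.80, 3.57 and 8.09 CPM, and 1.24, 1.74 and 3.61 CPM in the same order. The Ctrl hearts spread the most and the Doxo-NMN hearts the least for both genes. Doxo vs. Ctrl gave a log2 fold change of −0.84 ± 0.21 for *Hspa1b* (adjusted p = 0.000481), with 12 of 13 Doxo hearts under the Ctrl median, and of −0.25 ± 0.24 for *Hspa1a* (adjusted p = 0.355). The difference between these copies was not tested, and how reads that fit both were counted is not stated. With both summed, the log2 fold change was −0.56 ± 0.22 (adjusted p = 0.0198), short of 1.5-fold, and the sum was not called.

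*Hspb1*, the HSP27 gene, and *Cryab* encode small heat shock proteins that hold unfolded proteins without ATP and bind the sarcomere and desmin under stress. *Hspb1* was at a lowest, median and highest level of 101, 147 and 216 CPM in Ctrl, 94.3, 205 and 609 CPM in Doxo, and 86.0, 115 and 212 CPM in Doxo-NMN hearts. The Doxo hearts were spread out, from just below the Ctrl range to well above it: their SD was 171 CPM against 29.4 CPM in Ctrl hearts, and 5 of 13 lay above all Ctrl hearts. The log2 fold change was 0.82 ± 0.21 (adjusted p = 0.000726). *Cryab* went from 784, 1101 and 1304 CPM in Ctrl to 905, 1363 and 2120 CPM in Doxo and 755, 1042 and 1464 CPM in Doxo-NMN hearts. With a log2 fold change of 0.47 ± 0.12 (adjusted p = 0.000494) it passed the test but was under 1.5-fold, and 8 of 13 Doxo hearts lay above all Ctrl hearts. In hearts with little atrial tissue (*Myl4*, an atrial light chain gene, under 100 CPM; 6 Ctrl and 8 Doxo), the log2 fold change of *Hspb1* was 0.95, and in those at or over 100 CPM (8 and 5) it was 0.21 (adjusted p = 0.231), and the call was lost there. The call of *Hspb1* was also lost with limma voom and sample weights (0.47).

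*Bag3* encodes a co-factor that joins HSP70 to the small heat shock proteins and leads damaged sarcomere proteins to autophagy. Its lowest, median and highest levels were 186, 257 and 324 CPM in Ctrl, 218, 413 and 875 CPM in Doxo, and 198, 250 and 349 CPM in Doxo-NMN hearts. High values were common in Doxo: 10 of 13 hearts exceeded every Ctrl heart. The log2 fold change was 0.85 ± 0.14 (adjusted p = 1.91e-06), and it was 0.79 and 0.77 in the hearts under and at or over 100 CPM of *Myl4*.

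*Hspd1* encodes HSP60, the chaperonin of the mitochondrial matrix. It was at 389, 452 and 572 CPM (lowest, median, highest) in Ctrl, 136, 313 and 505 CPM in Doxo, and 237, 361 and 443 CPM in Doxo-NMN hearts, and 10 of 13 Doxo hearts lay below all Ctrl hearts. The log2 fold change of −0.54 ± 0.13 (adjusted p = 0.0004) passed the test at under 1.5-fold. Without replicate 6, at 505 CPM the highest Doxo heart, it was −0.62 and was called; it was also called without Doxo replicate 8 or 13. *Hspe1*, the HSP10 partner transcribed from the other side, moved with it, from a mean of 76.1 ± 8.87 CPM in Ctrl to 55.1 ± 11.1 CPM in Doxo (log2 fold change −0.47, adjusted p = 3.55e-06). These genes share 112 bases of exon on opposite strands, 4.24% of those of *Hspd1*, and strandedness of the counting is not stated.

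The last 3 genes differed little between Doxo and Ctrl hearts. *Dnajb1*, the HSP40 that feeds substrates to HSP70, was at a mean of 17.9 ± 4.82 CPM in Ctrl hearts, 14.2 ± 2.40 CPM with Doxo and 12.8 ± 2.62 CPM with NMN added, with a log2 fold change of −0.33 ± 0.11 (adjusted p = 0.00934) for Doxo vs. Ctrl. *Hsp90aa1*, the inducible HSP90, was at 188 ± 28.9 CPM in Ctrl and 189 ± 49.6 CPM in Doxo hearts (log2 fold change 0.0074, 95% confidence interval −0.21 to 0.22). *Hspa8* was at 1299 ± 161 CPM and 1427 ± 513 CPM (0.14, interval −0.10 to 0.37).

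**Figure D1:**
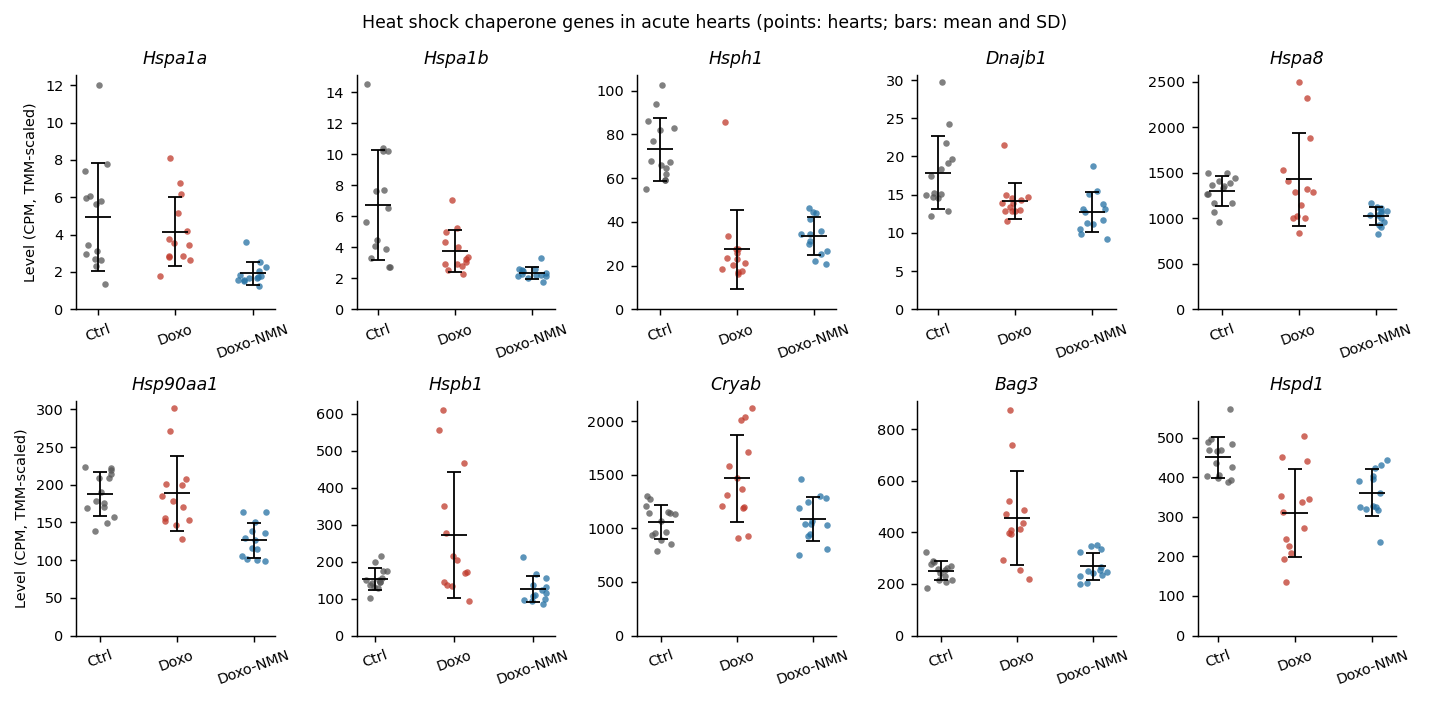
Level of each of the 10 genes in every acute heart, in CPM after TMM scaling (linear axes from 0), by group (14 Ctrl, 13 Doxo, 13 Doxo-NMN); points are hearts, and bars give the mean and SD. *Hsph1* Doxo hearts sit below the Ctrl hearts except 1 at 85.5 CPM, *Hspb1* and *Bag3* Doxo hearts spread upward to 609 and 875 CPM, and *Hspa1a* and *Hspa1b* are lowest and tightest in Doxo-NMN hearts.

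Of the 10 genes, those that differed between Doxo-NMN and Doxo hearts in the main fit were all lower. Without Doxo replicate 6, *Hsph1* (0.57) and *Hspd1* (0.30) passed at the adjusted p as higher, both under 1.5-fold. *Hspa1a*, *Hspa1b*, *Hspb1* and *Bag3* were called lower in Doxo-NMN than in Doxo hearts and none was called higher, 4 of 10 against a background of 17.1% of all genes (8.17% higher and 8.88% lower). At the adjusted p alone, 7 of 10 were lower, against 53% of all genes in either direction. The median log2 fold change was −0.53 over the 10 genes and −0.00083 over all genes tested. This comparison and Doxo vs. Ctrl share the Doxo hearts.

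Among these genes, *Hspb1*, *Bag3* and *Cryab* had been higher after Doxo. *Hspb1* fell by 1.11 ± 0.22 on the log2 scale (adjusted p = 6.6e-05) and *Bag3* by 0.76 ± 0.14 (adjusted p = 4.82e-05), with 12 and 13 of 13 Doxo-NMN hearts under the Doxo median. *Cryab* had a log2 fold change of −0.43 ± 0.12 (adjusted p = 0.00232), under 1.5-fold. Against Ctrl, Doxo-NMN hearts had log2 fold changes of −0.29 (interval −0.71 to 0.14) for *Hspb1*, 0.092 (−0.19 to 0.38) for *Bag3* and 0.037 (−0.20 to 0.27) for *Cryab*, none of which passed the test.

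The inducible HSP70 genes, which Doxo had not raised, were also lower with NMN. *Hspa1a* fell by 1.11 ± 0.25 on the log2 scale (adjusted p = 0.000429), with 8 of 13 Doxo-NMN hearts below every Doxo heart, and *Hspa1b* by 0.67 ± 0.21 (adjusted p = 0.00808). Both were then below Ctrl as well, with log2 fold changes of −1.36 ± 0.25 (adjusted p = 0.000123) and −1.51 ± 0.21 (adjusted p = 2.74e-06), and 12 of 13 Doxo-NMN hearts lay under all Ctrl hearts for *Hspa1b*. The *Hspa1b* difference from Doxo was the less stable: it was under 1.5-fold without Doxo replicate 4 (−0.56) and with limma voom and sample weights (−0.53), and in hearts at or over 100 CPM of *Myl4* neither *Hspa1b* (−0.43, adjusted p = 0.331) nor *Hspa1a* (−1.01, adjusted p = 0.0595) passed, with 4 Doxo-NMN and 5 Doxo hearts there. The sum of both was called against Doxo (−0.88 ± 0.22, adjusted p = 0.0011) and against Ctrl (−1.45 ± 0.22, adjusted p = 1.05e-05).

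*Hsp90aa1* and *Hspa8*, level between Ctrl and Doxo, showed the same order. *Hsp90aa1* was at a median of 185 CPM in Ctrl, 178 in Doxo and 126 in Doxo-NMN hearts, and all 13 Doxo-NMN hearts were under the Doxo median. Its log2 fold change against Doxo, −0.57 ± 0.11 (adjusted p = 5.56e-05), was just under 1.5-fold, and leaving out any of 10 hearts put it over that line. *Hspa8* was at medians of 1344, 1290 and 1037 CPM, and its log2 fold change against Doxo was −0.48 ± 0.12 (adjusted p = 0.000987). Against Ctrl, *Hsp90aa1* (−0.57, adjusted p = 0.000193), *Hspa8* (−0.34, adjusted p = 0.0264) and *Dnajb1* (−0.49, adjusted p = 0.00163) all passed the test at under 1.5-fold. In the hearts under 100 CPM of *Myl4*, *Hsp90aa1* (−0.72) and *Hspa8* (−0.61) were both called against Doxo.

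*Hsph1* and *Hspd1*, both lower after Doxo, had positive log2 fold changes with NMN that did not pass the test. *Hsph1* gave 0.29 ± 0.18 (adjusted p = 0.185), and all 13 Doxo-NMN hearts stayed below all 14 Ctrl hearts. Without Doxo replicate 6 it gave 0.57 ± 0.13 (adjusted p = 0.000239), which passed the test at under 1.5-fold, and it was called with limma voom and sample weights (0.67) and in the hearts at or over 100 CPM of *Myl4* (0.69). *Hspd1* gave 0.22 ± 0.13 (adjusted p = 0.151), and 0.30 without that heart (adjusted p = 0.0383).

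Against Ctrl, the called genes in Doxo-NMN hearts were *Hspa1a*, *Hspa1b* and *Hsph1* (−1.13 ± 0.18, adjusted p = 2.59e-05), all lower, 3 of 10 against a background of 7.11% (3.31% higher and 3.79% lower). At the adjusted p alone 6 of 10 were lower, against 26% of all genes in either direction; without Doxo replicate 6 *Hspd1* passed too (−0.32, adjusted p = 0.0455). The median log2 fold change was −0.41 over the 10 genes and 0.0065 over all genes tested.

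**Figure D2:**
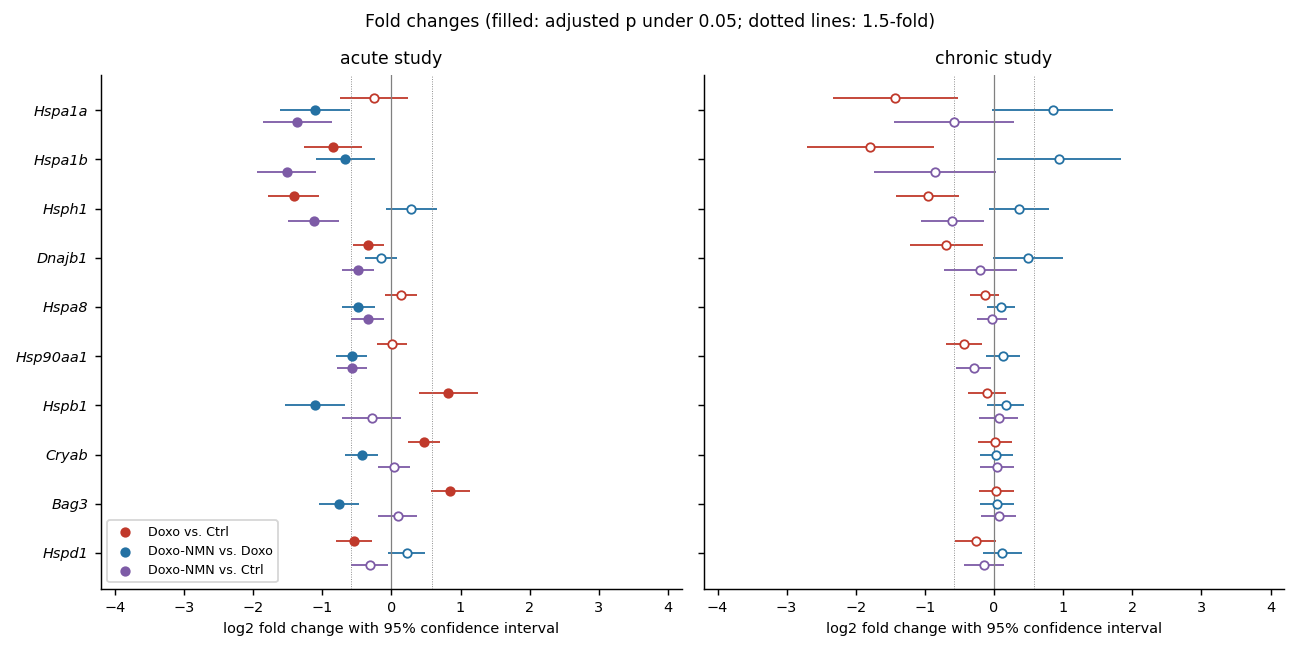
Log2 fold change with its 95% confidence interval for each gene in the acute (left) and chronic (right) study, for Doxo and Doxo-NMN against Ctrl and for Doxo-NMN against Doxo; filled points have an adjusted p under 0.05 and dotted lines mark 1.5-fold. The acute Doxo-NMN vs. Doxo points with an adjusted p under 0.05 are all left of 0, and every chronic point is open.

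Set against each other heart by heart, the acute groups differed in 2 ways and overlapped in part. In *Hsph1*, 12 of 13 Doxo and all 13 Doxo-NMN hearts lay below the Ctrl hearts, while the Doxo-NMN hearts, at up to 212 CPM of *Hspb1*, lay within or below the Ctrl range of 101 to 216 CPM. In *Bag3*, 10 Doxo hearts lay above all Ctrl hearts and 3 Doxo-NMN hearts did. Replicate 6 of the Doxo group, at 85.5 CPM of *Hsph1*, 169 CPM of *Hspb1* and 253 CPM of *Bag3*, lay among the Ctrl hearts in all 3.

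**Figure D3:**
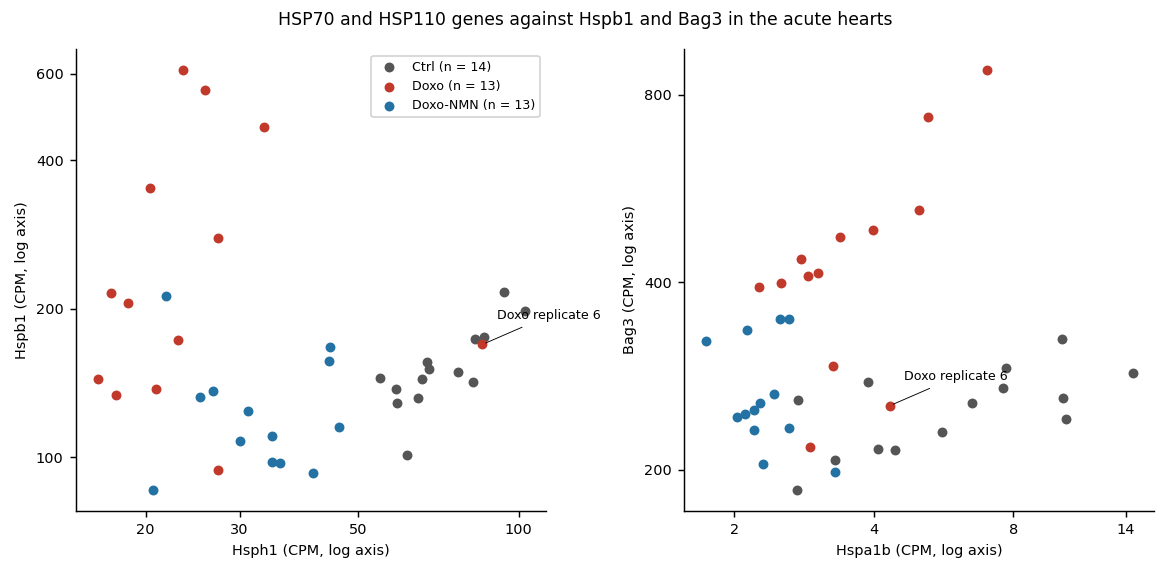
*Hspb1* against *Hsph1* (left) and *Bag3* against *Hspa1b* (right) in each acute heart, in CPM on log axes; each point is 1 heart, coloured by group, with Doxo replicate 6 marked. On the left, 12 of 13 Doxo hearts lie to the left of all Ctrl hearts and 5 lie above them. On the right, 10 Doxo hearts lie above all Ctrl hearts, but in *Hspa1b* the groups overlap and only 2 lie to the left. Doxo-NMN hearts (13 in *Hsph1* and 12 in *Hspa1b*) lie to the left of all Ctrl hearts. They are at *Hspb1* levels of 86.0 to 212 CPM and *Bag3* levels of 198 to 349 CPM. The marked heart lies among the Ctrl hearts.

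Within the groups, some genes varied together from heart to heart. Over 8 pairs in 3 acute groups, 24 correlations of log2 CPM were computed with permutation tests of 100000 resamples, two-sided. After Benjamini-Hochberg adjustment over all 24, 14 passed, of which 7 were in Ctrl, 4 in Doxo and 3 in Doxo-NMN hearts. Each test was against no correlation. The share of other gene pairs that would pass was not computed, so the count shows no trait particular to chaperone genes. *Hspb1* and *Cryab* were correlated in all 3 groups, with r = 0.796 in Ctrl (rho = 0.842, permutation p = 0.00053, adjusted p = 0.00232), 0.88 in Doxo (rho = 0.824, permutation p = 0.00011, adjusted p = 0.00066) and 0.732 in Doxo-NMN hearts (rho = 0.824, permutation p = 0.00404, adjusted p = 0.00693). Without the 2 hearts farthest from the median of *Hspb1*, r was 0.781, 0.819 and 0.752, and all 3 still passed. Among Ctrl hearts under 100 CPM of *Myl4* r was 0.446 (n = 6), and among those at or over it 0.825 (n = 8).

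The neighbouring pairs were correlated in every group as well. *Hspd1* and *Hspe1* had r = 0.934 in Ctrl (rho = 0.96, the smallest permutation p that the resamples can give, 1e-05, adjusted p = 0.00012), 0.75 in Doxo (rho = 0.841, permutation p = 0.0034, adjusted p = 0.00628) and 0.757 in Doxo-NMN hearts (rho = 0.632, permutation p = 0.00239, adjusted p = 0.00521). Without the 2 farthest hearts these were 0.867, 0.798 and 0.643, the last with an adjusted p = 0.0652 in the permutation test. *Cryab* and *Hspb2*, small heat shock protein genes that lie head to head on chromosome 9, had r = 0.778, 0.807 and 0.825 in Ctrl, Doxo and Doxo-NMN hearts (rho = 0.727, 0.824 and 0.808; permutation p = 0.00072, 0.00102 and 0.00058; adjusted p = 0.00247, 0.00269 and 0.00232). Without the 2 farthest hearts r was 0.604, 0.729 and 0.776, and the first no longer passed (adjusted p = 0.0652). The annotation puts 252 bases of exon in both *Cryab* and *Hspb2*, 17.04% of the exon bases of *Cryab* and 30.2% of those of *Hspb2*, so that reads there could count for either.

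The stress-inducible genes were correlated in Ctrl hearts, and their correlations in treated hearts did not pass the test. *Hsph1* and *Hsp90aa1* had r = 0.89 in Ctrl (rho = 0.895, permutation p = 7e-05, adjusted p = 0.00056; 0.893 without the 2 farthest hearts), 0.122 in Doxo (rho = 0.297, permutation p = 0.673, adjusted p = 0.734) and 0.196 in Doxo-NMN hearts (rho = 0.203, permutation p = 0.515, adjusted p = 0.65). *Hspa1b* and *Hsph1* had r = 0.787 in Ctrl (rho = 0.745, permutation p = 0.00109, adjusted p = 0.00269), and 0.0912 and −0.244 in Doxo and Doxo-NMN hearts. Without the 2 farthest hearts r was 0.733 in Ctrl, 0.253 in Doxo and −0.67 in Doxo-NMN hearts. The last had an adjusted p = 0.0528 in the permutation test. *Hspa1b* and *Dnajb1* had r = 0.732 in Ctrl (rho = 0.758, permutation p = 0.00287, adjusted p = 0.00574), which rested in part on the 2 farthest hearts (0.542 without them, adjusted p = 0.103), and −0.18 and 0.0211 in Doxo and Doxo-NMN hearts. In Ctrl hearts under and at or over 100 CPM of *Myl4*, r was 0.937 and 0.89 for *Hsph1* with *Hsp90aa1*, 0.816 and 0.875 for *Hspa1b* with *Hsph1*, and 0.612 and 0.895 for *Hspa1b* with *Dnajb1*. Whether r differs between groups was not tested. *Dnajb1* and *Bag3* passed in no group (r = 0.431, 0.118 and −0.26; adjusted p = 0.187, 0.734 and 0.556 in the permutation test).

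The copies *Hspa1a* and *Hspa1b* had r = 0.936 in Ctrl (rho = 0.921, permutation p = 1e-05, adjusted p = 0.00012; 0.913 without the 2 farthest hearts), 0.799 in Doxo (rho = 0.835, permutation p = 0.00112, adjusted p = 0.00269; 0.832) and 0.553 in Doxo-NMN hearts (rho = 0.588, permutation p = 0.0578, adjusted p = 0.0925; 0.606). Reads that fit both copies may tie these values.

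**Figure D4:**
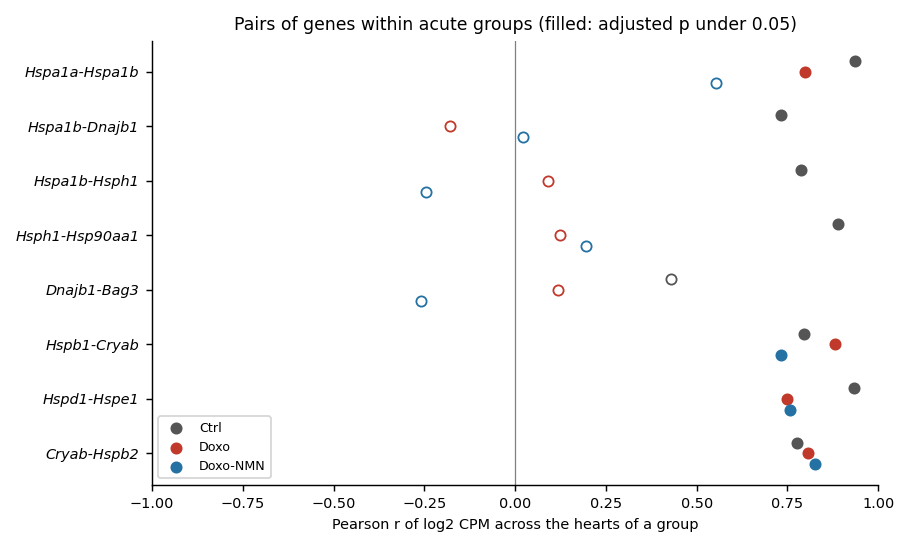
Pearson r of log2 CPM for 8 pairs of genes across the hearts of each acute group (14 Ctrl, 13 Doxo, 13 Doxo-NMN); filled circles have an adjusted permutation p under 0.05. *Hspb1*-*Cryab*, *Hspd1*-*Hspe1* and *Cryab*-*Hspb2* are filled in all 3 groups, and *Hspa1b*-*Dnajb1*, *Hspa1b*-*Hsph1* and *Hsph1*-*Hsp90aa1* in Ctrl alone.

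As a description, the genes outside the list whose log2 CPM followed each chaperone gene most closely over the 40 acute hearts, after subtracting group means, were looked up among 14230 genes, which share libraries and depth. *Hspb1* was followed by *Rcan1*, a calcineurin regulator (r = 0.941), and by *Hsp25-ps1* (0.926), a pseudogene copy of *Hspb1* that may share its reads. *Rcan1* was also closest to *Hsp90aa1* (0.826, then *Uck2* at 0.764) and second for *Hspa8* (0.871, after *Tcp1*, a subunit of the cytosolic chaperonin TRiC, at 0.891). *Bag3* was closest to *Ndrg2* (0.911) and *Csrp3* (0.896), the latter a Z-disc protein, and *Cryab* to *Ctsd* (0.927), a lysosomal protease, and *Psmb7* (0.915), a proteasome subunit. *Hspd1* was closest to *Hspa4* (0.925), an HSP110 family gene, and *Rnf11* (0.924), and *Hsph1* to *P4ha1* (0.875) and *Sh3bgr* (0.870). The least abundant genes had weaker partners: *Nup50* (0.638) and *Ythdf1* (0.589) for *Dnajb1*, *Serpinb1c* (0.702) and *Lman1l* (0.684) for *Hspa1a*, and *Lman1l* (0.595) and *Serpinb1c* (0.591) for *Hspa1b*.

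Around the 10 genes, 96 other genes of the heat shock and chaperone pathway were listed by family, of which 95 were tested. In acute Doxo vs. Ctrl hearts 21 of the 95 were called, 9 higher and 12 lower, a smaller share than the 30.1% of all genes, and 70 passed at the adjusted p alone, where all genes reached 68.1%. Their median log2 fold change was 0.071 against −0.0016 over all genes. In Doxo-NMN vs. Doxo hearts 13 of 95 were called, 7 higher and 6 lower, with a median of −0.092, against 17.1% of all genes, and in Doxo-NMN vs. Ctrl hearts 5 of 95, 4 higher and 1 lower, against 7.11%. With limma voom the last count was 1, and the share of all genes in that fit is not given here. Without Doxo replicate 6 the counts were 25, 17 and 6, against 33.3%, 20.9% and 7.41% of all genes. In all 3 comparisons, with and without that heart, the share called in edgeR was under that of all genes, and the genes are named here as a description of the pathway.

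*Hsf1*, the regulator itself, was at a mean of 32.1 ± 2.35 CPM in Ctrl hearts, 24.6 ± 4.12 CPM with Doxo and 30.4 ± 3.55 CPM with NMN added. Its log2 fold changes, −0.39 for Doxo vs. Ctrl (adjusted p = 4.68e-06) and 0.31 for Doxo-NMN vs. Doxo (adjusted p = 0.000327), passed the test at under 1.5-fold. Of the 4 tested genes of the heat shock factor list, 1 was called after Doxo, against 30.1% of all genes. It was *Hsf4*, a factor known for the lens, which was higher (log2 fold change 1.03).

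The counts per family that follow rest on few genes each. They are to be read against the same 30.1% of all genes, or 33.3% without Doxo replicate 6. In the HSP70 family, 5 of 10 genes were called after Doxo, 2 higher and 3 lower, against 30.1% of all genes. *Hspa2*, the testis-enriched HSP70, rose from a mean of 4.84 to 10.97 CPM (log2 fold change 1.18) and was lower with NMN (−0.98, 5.56 CPM). *Hspa1l*, the neighbour of *Hspa1a* on chromosome 17, rose from 1.53 to 2.84 CPM (0.88) and was lower with NMN (−0.67); 71.9% of its exon bases are shared with the annotated gene *Gm10501*. *Hspa12a* fell from 45.5 to 12.8 CPM (−1.83) and was higher with NMN (1.22, 29.8 CPM). *Hspa4l*, an HSP110 gene like *Hsph1*, fell by 0.65 on the log2 scale.

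Among HSP90 and its co-chaperones 3 of 15 genes were called after Doxo, 1 higher and 2 lower, against 30.1% of all genes. *Fkbp5*, a glucocorticoid-induced immunophilin, rose from 54.1 to 162 CPM (log2 fold change 1.58) and was lower with NMN (−0.86). The related *Fkbp4* fell from 413 to 166 CPM (−1.31) and was higher with NMN (0.79, 288 CPM). *Chordc1*, a zinc-binding HSP90 partner, fell by 1.02 on the log2 scale. Of 16 HSP40 genes 3 were called, *Dnajb9* (0.72) and *Dnajb4* (0.67) higher and *Dnaja1* lower (−0.83). Without Doxo replicate 6 there were 6, 4 higher and 2 lower, against 33.3% of all genes. *Dnaja1* did not differ between Doxo-NMN and Doxo hearts beyond its error (−0.017, adjusted p = 0.904) and was still below Ctrl (−0.85, adjusted p = 3.65e-07).

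Of the 5 other small heat shock protein genes 2 were called after Doxo, against 30.1% of all genes. *Hspb7*, which is found mainly in heart and muscle, rose from 1654 to 4172 CPM (log2 fold change 1.34) and was lower with NMN (−0.66, 2636 CPM), and *Hspb3* fell by 0.83 on the log2 scale. In the BAG3 filament pathway 2 of 7 genes were called: *Sqstm1*, the autophagy receptor p62, rose from 306 to 1083 CPM (1.82) and was lower with NMN (−1.01, 538 CPM), and *Synpo2*, the Z-disc partner of BAG3, fell by 0.66 and was just past 1.5-fold higher with NMN (0.58). Of 15 chaperones of the endoplasmic reticulum 6 were called, 2 higher (*Dnajb9* again and *Sil1*, 0.59, just past 1.5-fold) and 4 lower. Among the lower genes were *Pdia4* (−1.11) and *Hyou1* (−0.98), which were both higher with NMN (0.79 and 0.75). Without Doxo replicate 6 there were 7 called, 5 of them lower, against 33.3% of all genes. *Sil1* was also the 1 gene called among 9 BAG and HSP70 co-factor genes. None of 11 mitochondrial chaperone and protease genes, 8 TRiC and 6 prefoldin genes was called after Doxo by edgeR. At the adjusted p alone 7, 5 and 5 passed, against 68.1% of all genes.

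In the chronic hearts none of the 10 genes was called in any comparison by edgeR at an adjusted p under 0.05. The background was 0.0602% of the 14960 genes tested for Doxo vs. Ctrl, 0% for Doxo-NMN vs. Doxo and 0.0401% for Doxo-NMN vs. Ctrl. At an unadjusted p under 0.05 there were 5 of 10 genes for Doxo vs. Ctrl, all lower, against 7.85% of all genes, 1 for Doxo-NMN vs. Doxo (*Hspa1b*, higher) against 2.95%, and 2 for Doxo-NMN vs. Ctrl (*Hsph1* and *Hsp90aa1*, lower) against 4.73%. With DESeq2 and with limma voom and sample weights *Hsph1* was called for Doxo vs. Ctrl, and without the filter on low counts edgeR called *Hspa1b* and *Hsph1*. The median log2 fold changes of the 10 genes were −0.35, 0.15 and −0.17 in the 3 comparisons, against −0.00074, 0.0032 and 0.0054 over all genes.

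*Hsph1* was at 68.2, 73.0, 58.6, 78.5 and 103 CPM in the 5 chronic Ctrl hearts, at a lowest, median and highest level of 20.8, 43.03 and 49.9 CPM in Doxo, and at 33.5, 50.01 and 68.9 CPM in Doxo-NMN hearts. All 6 Doxo hearts lay below all Ctrl hearts. The log2 fold change of Doxo vs. Ctrl was −0.96 ± 0.22 (unadjusted p = 0.000293, adjusted p = 0.219 in edgeR).

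The inducible HSP70 genes varied widely among the chronic Ctrl hearts. *Hspa1b* was at 10.5, 9.01, 5.76, 14.3 and 29.3 CPM in Ctrl hearts, at 2.16, 3.84 and 6.45 CPM (lowest, median, highest) in Doxo, and at 2.07, 6.95 and 15.3 CPM in Doxo-NMN hearts. *Hspa1a* was at 10.2, 5.33, 3.63, 10.6 and 19.0 CPM in Ctrl, at 2.15, 3.18 and 5.71 CPM in Doxo, and at 2.48, 4.99 and 13.1 CPM in Doxo-NMN hearts. All 6 Doxo hearts were under the Ctrl median for both genes, and 5 and 3 of them lay below every Ctrl heart. The log2 fold changes of Doxo vs. Ctrl were −1.79 ± 0.44 for *Hspa1b* (adjusted p = 0.317) and −1.43 ± 0.43 for *Hspa1a* (adjusted p = 0.453), and those of Doxo-NMN vs. Doxo 0.94 ± 0.43 and 0.85 ± 0.42 (adjusted p = 0.999 for both, edgeR).

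*Dnajb1* and *Hsp90aa1* were the other genes under an unadjusted p of 0.05. *Dnajb1* was at 37.7, 29.4, 33.1, 39.8 and 46.01 CPM in Ctrl hearts, at 18.4, 21.3 and 32.7 CPM in Doxo and at 16.8, 28.7 and 58.5 CPM in Doxo-NMN hearts, with a log2 fold change of −0.69 ± 0.26 for Doxo vs. Ctrl (adjusted p = 0.567). *Hsp90aa1* was at 166, 131, 98.1, 123 and 152 CPM in Ctrl hearts, 86.6, 97.0 and 120 CPM in Doxo and 92.5, 114 and 122 CPM in Doxo-NMN hearts (−0.43 ± 0.12, adjusted p = 0.45). The groups overlapped for both genes.

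*Hspb1*, *Cryab*, *Bag3*, *Hspa8* and *Hspd1* had chronic log2 fold changes of Doxo vs. Ctrl between −0.27 and 0.029. *Bag3*, for example, averaged 244 ± 30.5 CPM in the Ctrl group, 249 ± 30.7 CPM with Doxo and 256 ± 42.02 CPM with NMN added, and *Hspb1* 221 ± 45.0, 206 ± 24.5 and 232 ± 34.9 CPM. Of the 95 pathway genes tested, none was called in any chronic comparison by edgeR, DESeq2 or limma voom; at an unadjusted p under 0.05 in edgeR there were 7 of 95 for Doxo vs. Ctrl (1 higher and 6 lower), 2 for Doxo-NMN vs. Doxo and 4 for Doxo-NMN vs. Ctrl, close to the 7.85%, 2.95% and 4.73% of all genes.

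**Figure D5:**
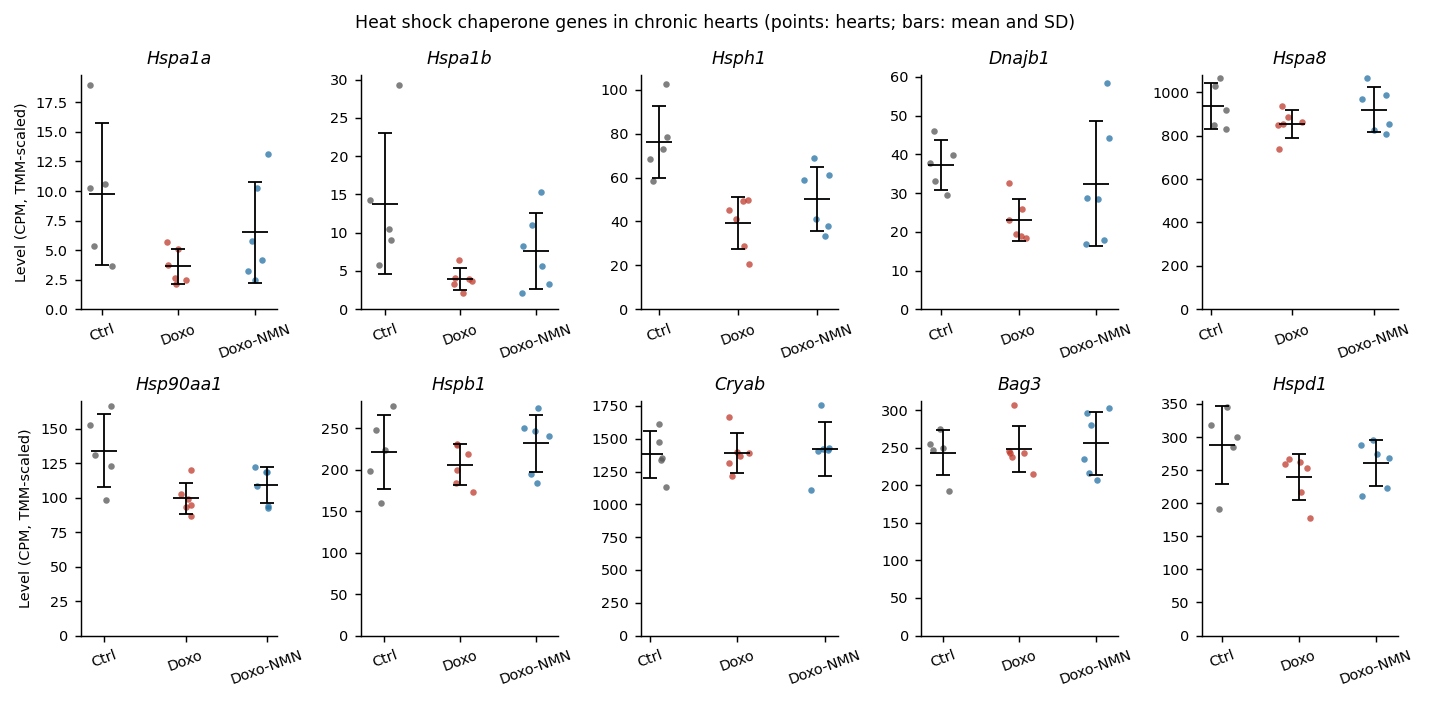
Level of each of the 10 genes in every chronic heart, in CPM after TMM scaling (linear axes from 0), by group (5 Ctrl, 6 Doxo, 6 Doxo-NMN); points are hearts, and bars give the mean and SD. *Hsph1* is lower in all 6 Doxo hearts (up to 49.9 CPM) than in the Ctrl hearts (from 58.6 CPM), and *Hspb1*, *Cryab* and *Bag3* overlap in all groups.

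Whether the effects differed between the studies was tested with an interaction term over all 57 hearts and 15152 genes, at an adjusted p under 0.05. For Doxo vs. Ctrl, 2 of 10 genes differed, against a background of 23.6%: *Bag3* (acute minus chronic log2 fold change 0.82 ± 0.24, adjusted p = 0.0113) and *Hspb1* (0.92 ± 0.34, adjusted p = 0.0447), the genes called higher in the acute study. For *Hsph1* the difference was −0.45 (interval −1.12 to 0.21); without acute Doxo replicate 6 it was −0.74 (adjusted p = 0.0215), and 3 genes passed, against 31.8% of all genes in that fit. For *Hspa1b* it was 0.94 (interval 0.043 to 1.84, adjusted p = 0.116). With the fit on only the groups of the interaction 1 gene, *Bag3*, passed, and the share of all genes in that fit is not given here.

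For Doxo-NMN vs. Doxo, 5 of 10 genes differed, against a background of 6.09%, all with a more negative acute value. They were *Hspa1a* (−1.94 ± 0.49, adjusted p = 0.0186), *Hspa1b* (−1.60 ± 0.44, adjusted p = 0.0267), *Hspb1* (−1.27 ± 0.34, adjusted p = 0.0229), *Bag3* (−0.79 ± 0.23, adjusted p = 0.0345) and *Hsp90aa1* (−0.70 ± 0.18, adjusted p = 0.0225). With the fit on only the groups of the interaction 1 gene passed, *Hspa1a*, and the share of all genes there is not given here. Without acute Doxo replicate 6 there were 6, against 17.8% of all genes in that fit. The added gene was *Hspa8* (−0.58, adjusted p = 0.0307 in edgeR). The acute and chronic NMN doses, routes and times differ, as do age, provider and Doxo schedule, and none of these can be told apart here. Of the 95 pathway genes, 26 differed in the Doxo effect (17 higher and 9 lower in acute minus chronic), against 23.6% of all genes, and 5 in the NMN effect (1 and 4), against 6.09%. These counts rested on the fit. Without acute Doxo replicate 6 they were 40 (23 and 17) and 20 (7 and 13), against 31.8% and 17.8% of all genes. With DESeq2 they were 32 and 11. The share of all genes in the DESeq2 fit is not given here.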

How the data were processed

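Poly(A) RNA from 57 mouse hearts was sequenced single-end. The deposited files are raw gene counts, which the authors made with STAR 2.7.3a and featureCounts 2.0.0 on mm10, per the submitters' processing notes; strandedness and the handling of multiply aligned reads are not given in the sources used here. Of counts from 1 to 20, 73.6% were even in the acute and 40.3% in the chronic table (medians over hearts). The reason was not tested. With the acute counts divided by 2, the same genes of the list were called in each acute comparison.

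Genes were filtered with filterByExpr, scaled with TMM and tested with edgeR 4.0.16 (quasi-likelihood, R 4.3.3) over the 3 groups of a study, and the interaction over all 57 hearts, with Benjamini-Hochberg adjustment over all genes tested. Acute calls required an adjusted p under 0.05 and a fold change of 1.5, and chronic and interaction calls the adjusted p only. Alternatives were DESeq2 1.42.0, voom with sample weights in limma 3.58.1, RLE scaling, other filters, the replicate number as a block and leaving out each heart. Correlations used log2 CPM (prior count 2) and 100000 permutations in scipy 1.17.1. Scripts were tested on simulated data. P-values measure the spread between hearts.

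The 10 genes and all lists were chosen with earlier results of these data known. Text names the 10 genes, their neighbours *Hspe1*, *Hspb2* and *Hspa1l*, *Hsf1*, up to 2 genes per pathway list and direction with the smallest adjusted p among acute Doxo vs. Ctrl calls, and the 2 closest genes to each member. Gene spans and exons came from GENCODE M21 (GRCm38), promoters from RefSeq. Pathway counts without acute Doxo replicate 6 and correlations within *Myl4* classes were chosen after seeing the data.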

Additional observations from a re-analysis of the deposited data

Results flagged for a closer look

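*Bag3* stood at 306.8 CPM in replicate 2 of the chronic Doxo group, whose other 5 hearts were lower and closer together. The gap passed Dixon's limit, which chance passes in about 1 of 20 groups. All 10 genes were checked in each of the 3 chronic groups and no other gap passed, so a single pass can come from chance. For 2 of the 10 genes, against 23.6% of all genes, the effect of Doxo vs. Ctrl differed between the acute and the chronic study in the interaction test. The log2 fold change (acute minus chronic) was 0.9206 for *Hspb1* and 0.8217 for *Bag3*. For 5 of the 10, against 6.09% of all genes, the effect of Doxo-NMN vs. Doxo differed in the same test. The values were −1.94 for *Hspa1a*, −1.598 for *Hspa1b*, −0.7019 for *Hsp90aa1*, −1.268 for *Hspb1* and −0.7948 for *Bag3*. With the fit on only the groups of the interaction, 1 gene passed for each effect. Study, provider, age, Doxo schedule, NMN dose and NMN route cannot be told apart in these differences.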

How the results depend on the processing

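Requiring no fold change gave 7, 7 and 6 genes called in the acute study for Doxo vs. Ctrl, then Doxo-NMN vs. Doxo, then Doxo-NMN vs. Ctrl. Leaving out 1 heart gave 4 to 5, 3 to 5 and 3 to 4, and 0 in each chronic comparison. For chronic Doxo vs. Ctrl, DESeq2 gave 1, limma voom 1 and no filter 2. Shares of all genes are given only for the main fits and for those without acute Doxo replicate 6. Counts from the other settings have no such share beside them. For the interaction, the Doxo effect had 1 gene with only the groups of the interaction, 1 with the replicate block (*Bag3*; *Hspb1* was at 0.75) and 3 without acute Doxo replicate 6, and the NMN effect 1 with only the groups of the interaction and 6 without that heart. Whether replicate numbers pair the hearts is not stated and was not settled. Deviations of same-numbered hearts correlated over 0.1 in 3 to 8 of 13 acute and 0 to 2 chronic pairs. The median r of 2 acute groups ran from −0.14 to 0.26, and hearts of different numbers were not compared. With the block, acute Doxo vs. Ctrl had 5 genes (*Hspd1* added, −0.60), and the other counts within the studies were unchanged. A fold change turned sign in 44 single fits, counted over genes, comparisons and settings, and many of these fits repeat the same gene and comparison. The adjusted p was 0.288 or more in every one. In acute Doxo vs. Ctrl, *Hsp90aa1* was −0.0047 with 10 counts in every heart, −0.15 at or over 100 CPM of *Myl4*, −0.089 with voom, −0.024 with no filter, −0.030 with the block and −0.071 to 0.045 without 1 heart, and *Hspa8* −0.12 at or over 100 CPM of *Myl4* and −0.0083 with voom. In acute Doxo-NMN vs. Ctrl, *Cryab* was −0.15 and −0.029 at or over and under 100 CPM of *Myl4* and −0.0052 to 0.073 without 1 heart, and *Bag3* −0.035 at or over 100 CPM. In chronic Doxo vs. Ctrl, *Cryab* was −0.0015 with voom, −0.022 with the block and −0.048 to 0.072 without 1 heart, and *Bag3* −0.074 with voom and −0.045 to 0.076. Without 1 heart, chronic Doxo-NMN vs. Doxo gave −0.036 to 0.089 for *Cryab* and −0.016 to 0.11 for *Bag3*, and Doxo-NMN vs. Ctrl −0.032 to 0.15 for *Hspb1*, −0.025 to 0.10 for *Cryab*, −0.0081 to 0.12 for *Bag3* and −0.076 to 0.017 for *Hspa8* (0.024 with voom). The NMN interaction of *Hsph1* was 0.028 with the block and 0.22 without replicate 6. Among correlations, *Hspa1b*-*Dnajb1* in Doxo-NMN hearts was −0.44 without the 2 farthest hearts and −0.19 under 100 CPM of *Myl4*, *Hspa1b*-*Hsph1* in Doxo hearts −0.14 without replicate 6, and *Hsph1*-*Hsp90aa1* in Doxo hearts −0.10 under 100 CPM of *Myl4*. The cause was not tested for any of these. No chronic heart reached 100 CPM of *Myl4*, so that setting was not run there. Depth limits *Hspa1a* and *Hspa1b* the most, at a few CPM each.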

Other observations

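In the chronic study the heart numbered 5 was the highest of its group for *Hspa1a*, *Hspa1b*, *Hsph1* and *Dnajb1* in all 3 groups, Ctrl, Doxo and Doxo-NMN. The number links the hearts of different groups in no stated way, and the pattern was noticed in these values and not tested.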
